A study of Mus musculus with 18 samples.

Results

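The genes described here encode the proteins of the cytosolic ribosome, and their mRNA was measured by RNA sequencing in the mouse spleen. They were found by name in the deposited table, as Rpl and Rps genes with a number, Rplp0, Rplp1, Rplp2 and Rpsa, and they had to reach a mean of 10 RPKM (reads scaled by gene length and by the mapped reads of the library) over the 18 libraries. Of 19320 genes used, 81 matched the name and 76 passed the limit, 45 of the large and 31 of the small subunit. The 76 reached at least 1 RPKM in every library, so all of them entered the tests.

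A cytosolic ribosome is built from a large and a small subunit, each made of ribosomal RNA and of a fixed set of proteins that are mostly present once per particle. The mRNAs of these proteins belong to the most abundant of growing and secreting cells, and many of them begin with a C and a run of pyrimidines, the TOP tract (terminal oligopyrimidine tract), through which the kinase mTOR and the RNA binding protein Larp1 set their translation. In blood formation, which continues in the adult mouse spleen, red cell precursors depend on a full supply of these proteins, and mutations in several of the genes, RPS19 first among them, cause Diamond-Blackfan anemia.

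All 18 spleens came from ICR mice, an outbred strain, at 10 weeks of age, with 3 libraries per group. Con animals were controls, and A10 animals received alginate oligosaccharide (AOS, short sugar chains from brown algae) at 10 mg/kg. STZ animals received streptozotocin, a toxin of the insulin-producing cells of the pancreas that is used as a model of type 1 diabetes, and STZ-A10 animals received STZ and AOS at 10 mg/kg. A10-FMT and Con-FMT animals also received STZ, followed by an oral transplant of gut content (fecal microbiota transplantation, FMT) from donors given AOS at 10 mg/kg or from control donors. The A10 and STZ-A10 groups are known here from the sample labels alone. The comparisons ask whether STZ, AOS and the 2 transplants go with a different spleen transcript level. Replicates are numbered samples, and p-values measure only the spread between these samples.

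The sequence around the annotated transcript start was looked up first, because the TOP tract is the best known shared feature of these mRNAs. RefSeq promoter entries (GRCm38.p6) covering 250 bases before and 50 after the start were found for 57 of the 76 genes. A TOP tract, taken as a C at the first annotated base followed by at least 4 further C or T, was present in 13 of the 57 (22.8%), against 3.01% of 27025 genes with an entry and 0 of 69 mitochondrial ribosomal protein genes. The lines below show 6 of the 13, 3 of each subunit, with 15 bases of upstream flank and the first 15 bases of exon 1, and the capitals mark the tract. They stand on chr7:4792950-4792979 (plus strand), chr2:39005117-39005146 (minus), chr14:18270972-18271001 (minus), chr17:33955651-33955680 (minus), chr3:90213634-90213663 (minus) and chr4:86857353-86857382 (minus), in this order.
Rpl28: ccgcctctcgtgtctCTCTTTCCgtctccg
Rpl35: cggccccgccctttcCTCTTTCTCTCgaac
Rpl15: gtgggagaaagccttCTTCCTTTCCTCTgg
Rps18: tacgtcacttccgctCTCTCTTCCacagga
Rps27: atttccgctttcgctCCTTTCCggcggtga
Rps6: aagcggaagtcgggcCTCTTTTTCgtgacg
Annotated starts are not measured starts, and the count depends on the exact base. When a C followed by at least 7 C or T was accepted anywhere from 20 bases before to 30 after the start, 32 of the 57 (56.1%) held such a tract, against 17.04% of all genes with an entry.

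Among 10 sequence patterns searched, several of them chosen after the promoters had been looked at, the word CCGGAAG, which is the core bound by ETS family factors, was found on either strand in 24 of the 57 promoters (42.1%). It was found in 9.93% of all promoters, in 23.7% of those of other genes with a mean of at least 10 RPKM in these spleens and in 37.7% of those of mitochondrial ribosomal protein genes. A palindrome made of TCTCG and its reverse complement was found in 6 of the 57 (10.5%), in 0.525% of all promoters and in 1.38% of those of the other genes with at least 10 RPKM. TATAAA was found in 10.5% of the 57, in 15.7% of all promoters and in 8.73% of those of the other genes with at least 10 RPKM. Examples from genes that recur below are printed next, with the word in capitals. The Rpl11 window is at chr4:136053371-136053397 (minus strand), where the word begins 6 bases after the annotated start. The Rpl31 window is at chr1:39367849-39367875 (plus), 8 bases after it. The Rps27l window is at chr9:66946085-66946111 (plus), 9 bases after it. The palindromes of Rps28, chr17:33824544-33824573 (minus), and Rps19, chr7:24884574-24884603 (plus), begin 1 and 8 bases before an annotated start.
Rpl11: ggccacggggCCGGAAGtctccctctc
Rpl31: tccccgtgacCCGGAAGttgtacggct
Rps27l: cgcctctatcCCGGAAGttgctgaggg
Rps28: ccgcgtgcggTCTCGCGAGAgcgaaagtga
Rps19: cactccgaaaTCTCGCGAGActcgacgccc
A match is a description of the letters and was not tested as a binding site.

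The ribosomal protein mRNAs made up a large part of the spleen transcriptome. Their median mean level was 1764 RPKM, against 11.7 RPKM for the 12905 genes tested, and 62 of the 100 genes with the highest means were members. Members of the small subunit had a median of 1971 RPKM and those of the large subunit a median of 1579 RPKM. The quartiles of the 76 means lay at 1117 and 2306 RPKM, and 62 of the 76 members had a mean of at least 1000 RPKM. RPKM is scaled by gene length, but near-identical copies, described below, leave the level of some genes uncertain.

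In the large subunit, the highest means were those of Rpl23a (3708 RPKM), Rpl41 (3389 RPKM) and Rplp1 (3119 RPKM). Rpl41 encodes a very short basic peptide of the subunit interface, and Rplp1 a protein of the stalk that recruits translation factors. The lowest were Rpl34 (15.8 RPKM), Rpl22 (227 RPKM) and Rpl37 (579 RPKM). In the small subunit, Rps27 (5987 RPKM), Rps12 (3734 RPKM) and Rps26 (3638 RPKM) led. Rps6 (36.0 RPKM), Rps15a (126 RPKM) and Rps27l (128 RPKM) came last. Rpl34 and Rps6, the 2 members just inside the limit of 10 RPKM, were thus far below the rest, and only 6 of the 76 had a mean under 300 RPKM.

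**Figure D1:**
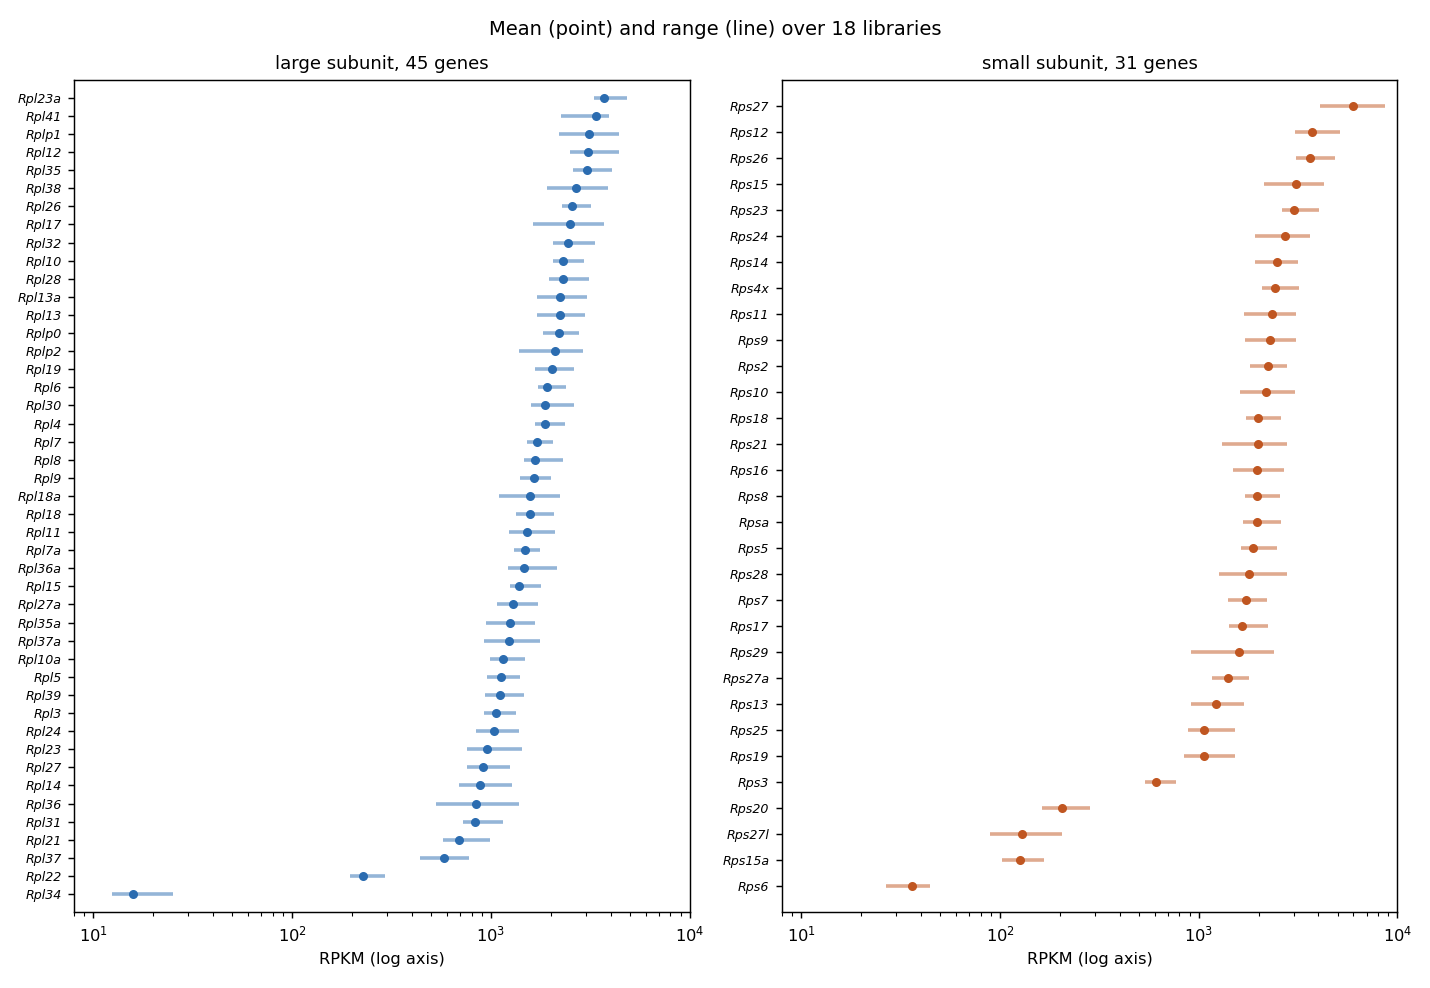
RPKM (log axis) of the 45 large subunit genes (left) and the 31 small subunit genes (right), with the mean over 18 libraries as a point and the lowest to highest library as a line. The means of 62 of the 76 genes are at least 1000 RPKM, while Rpl34 at 15.8 RPKM and Rps6 at 36.0 RPKM stand far to the left.

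Of the 5 matching rows under the limit, Rpl29 (4.64 RPKM) was just outside. The others were the tissue-restricted paralogs Rpl3l (0.28 RPKM), Rpl39l (0.21 RPKM) and Rpl10l (0.057 RPKM), and Rpl32l (0.018 RPKM). Rpl3l replaces Rpl3 in muscle, and Rpl10l and Rpl39l are known from male germ cells. Against their paralogs Rpl3 (1059 RPKM), Rpl39 (1106 RPKM) and Rpl10 (2313 RPKM) these rows were at the bottom of the scale. For both germ cell paralogs the highest library was Con replicate 2, with 0.78 RPKM of Rpl10l and 1.24 RPKM of Rpl39l. In the same library the sum of 4 testis germ cell markers was 251 RPKM, against 0.15 to 31.1 RPKM in the other 17, and the part of that RNA in any other value was not tested. Rps4x on the X chromosome was listed at a mean of 2427 RPKM.

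The low values of Rpl34 and Rpl29 stood beside rows of near-identical copies with high values. Most ribosomal protein genes have processed pseudogenes, which are copies of the mRNA pasted elsewhere into the genome. In GENCODE M21 (GRCm38), 72 of the 76 members had at least 1 other annotated copy of at least 95% identity over at least 80% of the coding sequence. The median was 5 copies and the highest number 57, for Rpl21. The deposited table lists such a copy for 10 members.

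The table gave 2554 RPKM for Rpl34-ps1, a processed pseudogene at chr6:71124610-71124963 (plus strand), and 15.8 RPKM for Rpl34, a protein-coding gene at chr3:130726831-130730398 (minus strand). Their coding sequences of 351 bases differ at 2 positions, counted from the A of the start codon, T132C and C318G, with the base of Rpl34 first. Gm8210, a processed pseudogene at chr1:43189156-43189638 (plus strand), was listed at 1250 RPKM and Rpl29, at chr9:106429454-106431568 (plus strand), at 4.64 RPKM. These coding sequences of 480 bases differ at 3 positions, C72A, C300T and T423C. The windows around the 2 differences of Rpl34 and the first of Rpl29 follow, with the differing base in capitals.
Rpl34 at 132: aaagcacctaaatcTgcatgtggcgtgtg
Rpl34-ps1 at 132: aaagcacctaaatcCgcatgtggcgtgtg
Rpl34 at 318: atcgttgtgaaagtCttgaaggcacaagc
Rpl34-ps1 at 318: atcgttgtgaaagtGttgaaggcacaagc
Rpl29 at 72: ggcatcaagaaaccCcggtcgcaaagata
Gm8210 at 72: ggcatcaagaaaccAcggtcgcaaagata
Reads of these genes can hardly be told apart by sequence, so a value in such a row may hold reads of its partner. Rpl34-ps1 exceeded Rpl34 by 85.1 to 231 times in the 18 libraries, and Gm8210 exceeded Rpl29 by 188 to 614 times. The levels of Rpl34 and Rpl29 are therefore uncertain, and so is any difference in them between groups. The same holds, with smaller shares, for Rpl21 (693 RPKM) with Gm10045 (144 RPKM) and BC004004 (40.3 RPKM). It also holds for Rpl37 (579 RPKM) with Rpl37rt (41.0 RPKM) and for Rpl31 (828 RPKM) with Rpl31-ps12 (17.8 RPKM). Rps27 (5987 RPKM) has a copy with an identical coding sequence, Rps27rt, that was listed at 0. Rps6 (36.0 RPKM) had 11 annotated copies, of which the table lists 0, so its level and its group differences are uncertain too. The part of these copies in its low value was not tested. Members under 300 RPKM had a median of 3.5 copies and the others of 5.

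**Figure D2:**
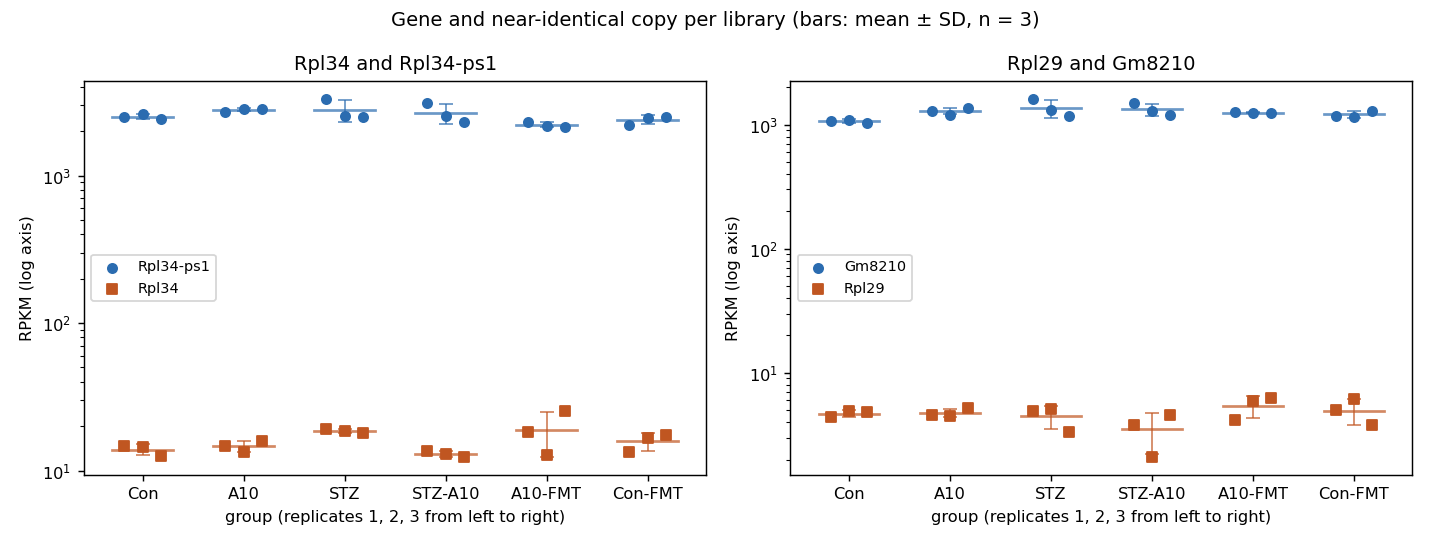
RPKM (log axis) of Rpl34 and Rpl34-ps1 (left) and of Rpl29 and Gm8210 (right) in each library, by group, with bars for the mean and SD of 3 replicates. The copy is above its gene by at least 85.1 times in every library of both pairs.

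Summed over the 76 genes, the ribosomal protein mRNAs took 13.4% to 26.5% of all RPKM of a library. The 2 ends of this range were A10-FMT replicate 3 and STZ replicate 1, which also had the highest and the lowest share of globin mRNA (42.7% and 10.4%). Taken as a share of the RPKM that was not globin, the range was 22.6% to 29.6%. Globin mRNA comes from red cells and their precursors and is so abundant that it lowers the share left for every other gene. In bulk samples, fewer cells of a type and less RNA per cell cannot be told apart.

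The large subunit summed to 69337, 72619 and 67441 RPKM in Con, and to 80350, 74620 and 83891 RPKM in A10. The 3 STZ libraries held 102635, 77399 and 68430 RPKM, and the STZ-A10 libraries 89521, 74157 and 70223 RPKM. In A10-FMT the sums were 76398, 74379 and 68441 RPKM, and in Con-FMT 76027, 74862 and 80118 RPKM. All A10 sums were above all Con sums, whereas the STZ libraries spread from the level of Con to far above it. The small subunit had a mean of 55437 ± 2213 RPKM in Con (SD, n = 3 here and below) and of 62383 ± 3233 RPKM in A10. The means were 65125 ± 14752 RPKM for STZ, 63194 ± 10349 RPKM for STZ-A10, 55968 ± 5429 RPKM for A10-FMT and 60703 ± 1769 RPKM for Con-FMT. The ratio of the large to the small subunit was 1.19 to 1.29 in 17 libraries and 1.38 in A10-FMT replicate 3.

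As a share of non-globin RPKM, all members together took 22.6%, 23.9% and 23.1% in Con and 25.6%, 24.2% and 25.9% in A10. In STZ the shares were 29.6%, 25.7% and 23.7%. STZ-A10 libraries held 27.6%, 24.8% and 24.4%, A10-FMT libraries 25.7%, 23.6% and 23.3%, and Con-FMT libraries 24.7% to 25.5%. The Con libraries had the lowest mean on this scale too, with A10, STZ-A10 and Con-FMT above them without overlap, and with A10-FMT and STZ overlapping with them. No test was made of these sums.

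**Figure D3:**
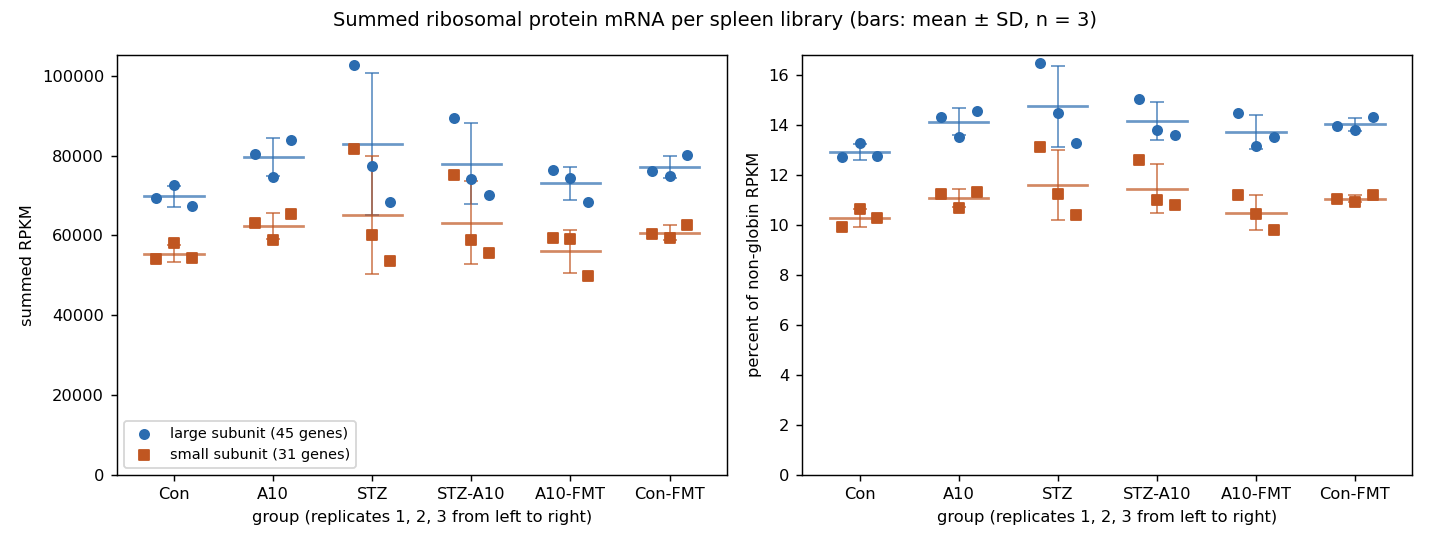
Summed RPKM (left) and percent of non-globin RPKM (right) of the large subunit (circles) and the small subunit (squares) in each library, by group, with bars for the mean and SD of 3 replicates. STZ replicate 1 and STZ-A10 replicate 1 lie above the other libraries of their groups in both subunits.

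The members rose and fell together from library to library. STZ replicate 1 was the highest of the 18 libraries for 70 of the 76 genes, and without it STZ-A10 replicate 1 was the highest for 58. The lowest library was A10-FMT replicate 3 for 27 genes, Con replicate 3 for 20 and Con replicate 1 for 13. The SD of a member's log2(RPKM + 1) over the 18 libraries had a median of 0.18, and this fell to 0.092 once the median of the members in each library had been subtracted. The median SD of all tested genes was 0.23 without any subtraction, at a much lower median level (11.7 RPKM). No value after a subtraction is given for them, so the 0.092 has no counterpart. The median log2 level of the tested genes also moved, from 3.32 in A10-FMT replicate 3 to 3.77 in STZ-A10 replicate 1.

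Only 5 members kept an SD over 0.2 after this subtraction, Rpl34, Rps27l, Rps6, Rpl36 and Rps29. The first 3 are low-level members. The deviations below are a member's log2 distance from the median member of the library, minus its own mean distance over the 18 libraries. In A10-FMT replicate 3, Rps27l (0.95) and Rpl34 (0.92) deviated most upward, followed by Rpl7a (0.45), Rps2 (0.41) and Rplp0 (0.39). The lowest deviations were those of Rpl17 (-0.34), Rplp2 (-0.33) and Rps21 (-0.32). In STZ replicate 1, Rps6 (-0.47) and Rps27l (-0.39) did not share the high level of the others. In Con replicate 3, Rps29 (-0.61), Rpl41 (-0.44), Rps27l (-0.36) and Rplp1 (-0.35) were low.

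The coding sequences of these genes are short (168 bases for Rps29, 75 for Rpl41, 252 for Rps27l and 342 for Rplp1), and the whole set was therefore split by coding length, a choice made after the values were seen. Among the 25 members with the shortest coding sequences (up to 396 bases) the median deviation in Con replicate 3 was -0.13, and among the 25 longest (576 bases or more) it was 0.03. In STZ replicate 1 the order was the opposite, with 0.06 in the shortest and -0.06 in the longest. In the other 16 libraries the medians of the 2 sets differed by less than 0.1. Over the 76 genes, which share each library, the rank correlation of the deviation with coding length was 0.49 in Con replicate 3 and -0.45 in STZ replicate 1, and of similar size in STZ-A10 replicate 2 (0.46), Con-FMT replicate 3 (0.40) and Con-FMT replicate 2 (-0.40). The part of coding length in the group differences was not tested.

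**Figure D4:**
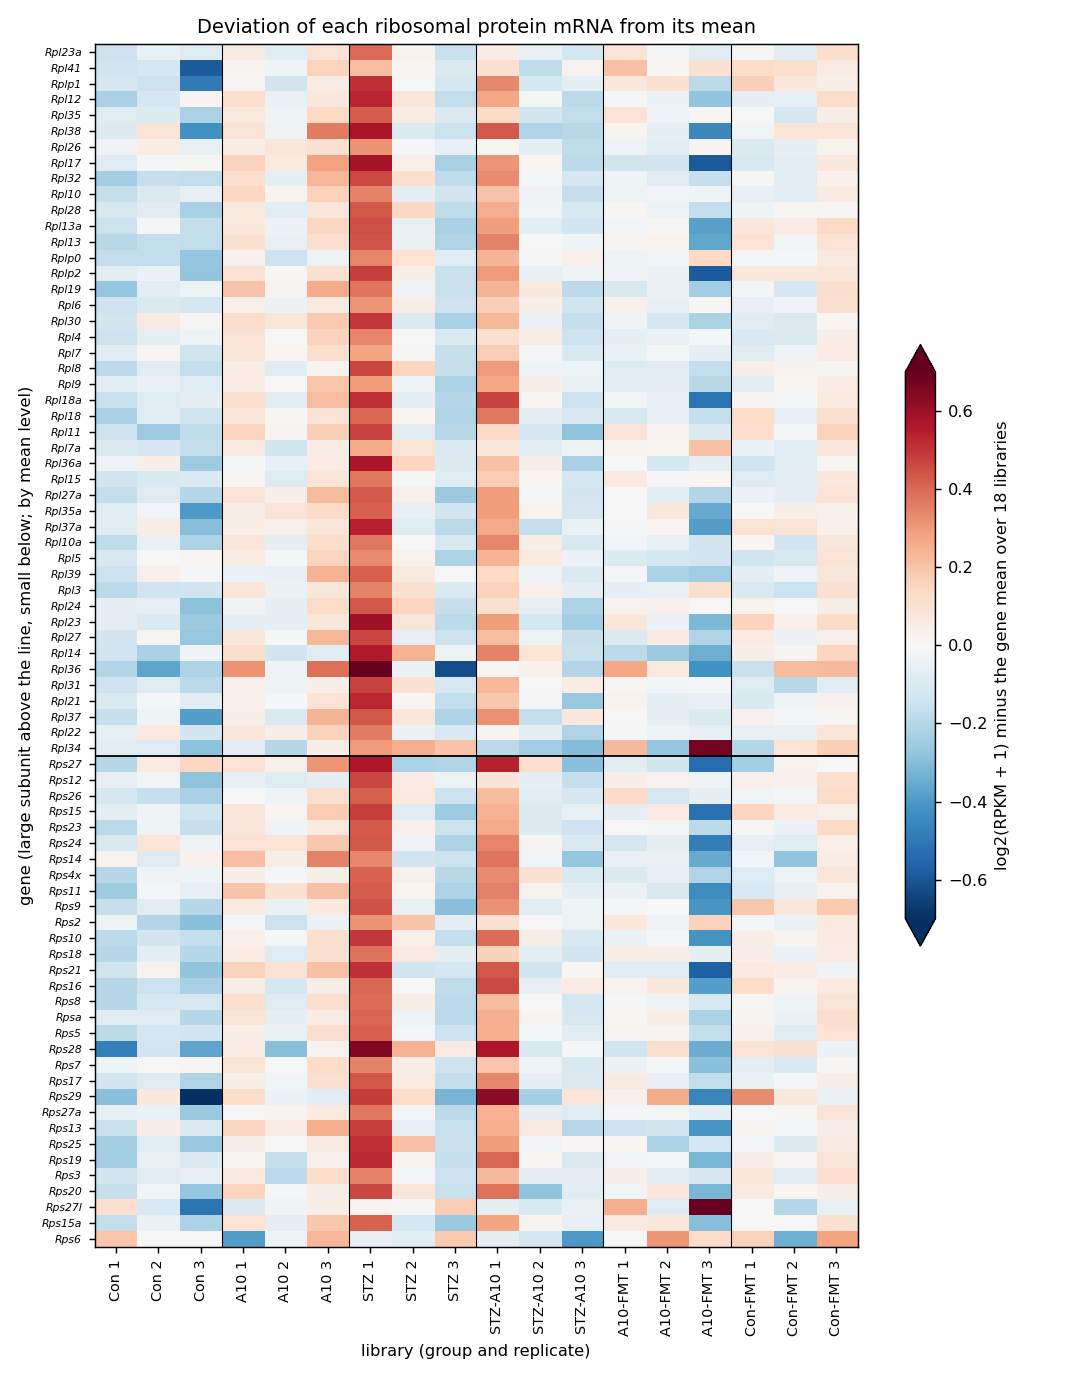
Deviation of each of the 76 genes (rows, by subunit and mean level) from its own mean log2(RPKM + 1) over 18 libraries (columns, by group). The column of STZ replicate 1 is high for almost every gene, and single rows such as Rpl34, Rps27l and Rps6 break the shared pattern.

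The libraries differed in their cell content as well. A10-FMT replicate 3 had the lowest sums of the 6 B cell markers (537 RPKM, others at least 1287) and the 7 T cell markers (66.2 RPKM, others at least 158), and the highest of the 8 erythroid markers (4399 RPKM, others at most 2791). The 6 neutrophil markers summed to 758 to 14423 RPKM in Con and to at most 1625 RPKM in every other group. All members of these 4 lists reached 1 RPKM in every library. The 9 acinar pancreas markers summed to 23.1 RPKM in Con replicate 3 and to 19126 RPKM in A10-FMT replicate 2. Of all marker genes, the liver gene Alb and the germ cell genes Prm1, Prm2 and Tnp1 passed the adjusted test for any difference among the groups, and Tnp1 also that of STZ against Con. None of these sums was tested for its part in the levels of the ribosomal protein mRNAs.

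In the tests, every gene was fitted with limma on log2(RPKM + 1) over all 18 libraries, and 0 of the 76 members passed an adjusted p of 0.05 in any of the 6 group pairs, in the interaction of STZ and AOS or in the test for any difference among the 6 groups. Limma without the trend also called 0 members in each of these. The standard error of a member's log2 fold change between 2 groups was 0.11 to 0.26, with a median of 0.15. The pairs share groups: Con enters 2 of them and STZ 4.

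With STZ against Con, the level of almost all members was higher in the STZ group, but 0 members passed the adjusted threshold. The fitted log2 fold change was above 0 in 75 of 76 members, with a median of 0.23, against -0.01 over all 12905 tested genes. It was 0.24 in the large and 0.22 in the small subunit. Over all tested genes 0.163% passed the adjusted threshold. At an unadjusted p under 0.05 there were 11 members, all higher (14.5% of the members). Of all tested genes 11.1% had such a p, 4.63% of them higher and 6.44% lower in STZ. The 3 STZ libraries were above the 3 Con libraries without overlap in 8 members (10.5%), against 5.77% of all tested genes, and below them in 0 members (7.07%).

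The largest difference was that of Rps28, a small protein near the mRNA channel. Its level was 1262, 1602 and 1363 RPKM in Con and 2765, 2081 and 1831 RPKM in STZ. The lowest STZ library was above the highest Con library, and the log2 fold change was 0.64 ± 0.19 (SE), with a 95% interval of 0.23 to 1.06 and an adjusted p of 0.163. Rps29, which had the next largest value (0.42 ± 0.26, adjusted p = 0.626), overlapped between the groups, with 1265, 1632 and 918 RPKM in Con and 2174, 1694 and 1236 RPKM in STZ. At the other end were Rps6 (-0.05) and Rps14 (0.03). Rps6, the substrate of the kinases downstream of mTOR, had 40.9, 35.5 and 35.7 RPKM in Con and 34.2, 33.8 and 40.5 RPKM in STZ.

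Of the stalk genes, Rplp0, the base of the stalk, was at 1955, 1947 and 1817 RPKM in Con and at 2774, 2351 and 2065 RPKM in STZ, without overlap. Its log2 fold change was 0.32 ± 0.12, with an adjusted p of 0.295. Rplp1 (0.38, adjusted p = 0.429) and Rplp2 (0.25, adjusted p = 0.669), its partner, overlapped between the groups. Rpl3, which lies at the peptidyl transferase centre, was at 925, 958 and 961 RPKM in Con and at 1344, 1137 and 982 RPKM in STZ, with a log2 fold change of 0.27 and an adjusted p of 0.406. Rps19, the gene of Diamond-Blackfan anemia, had 894, 1024 and 985 RPKM in Con and 1522, 1078 and 946 RPKM in STZ, and the groups overlapped.

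This shift rested largely on a single library. Without STZ replicate 1 the median log2 fold change of the members was 0.06 and 1 member had an unadjusted p under 0.05. Without STZ replicate 3 the median was 0.35 and there were 44 such members, and 57 members did not overlap (15.2% of all tested genes). The share of all tested genes with an unadjusted p under 0.05 is not given for these fits, so the counts by p have no counterpart. Leaving out a library can only raise a count of genes without overlap or leave it unchanged. Without Con replicate 2 there were 16 members without overlap (7.56%), and with each library rescaled to the same non-globin RPKM there were 25 (5.03%), but with the same total RPKM only 2 (3.46%). Members called at an adjusted p of 0.05 numbered 0 in both cases. STZ replicate 1 was also the library with the lowest globin share (10.4%, against 32.8% and 35.6% in the other STZ libraries).

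With A10 against Con, the median log2 fold change was smaller, but more members had no overlap between the groups. The median was 0.17 over the members, 0.16 in the large and 0.18 in the small subunit, and 0.05 over all tested genes. In 43 of the 76 members (56.6%) the 3 A10 libraries were above the 3 Con libraries without overlap, against 11.7% of all tested genes, and in 0 members they were below without overlap (4.81%). Still, 0 members passed the adjusted threshold, as 0.00775% of all tested genes did, and 1 member had an unadjusted p under 0.05, Rpl41, among 5.25% of all tested genes (3.56% higher, 1.68% lower). The 43 were 24 of the large and 19 of the small subunit.

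Rpl41 was at 3058, 3092 and 2248 RPKM in Con and at 3414, 3291 and 3749 RPKM in A10, a log2 fold change of 0.33 ± 0.14 with an adjusted p of 0.883. Rpl36 had the largest fold change, 0.49 ± 0.26, with 710, 634 and 705 RPKM in Con and 1018, 801 and 1072 RPKM in A10. In neither gene did the groups overlap. The proteins Rpl5 and Rpl11 form the particle of the smallest ribosomal RNA, which also binds Mdm2 when ribosome assembly fails. Rpl11 did not overlap, with 1353, 1258 and 1323 RPKM in Con and 1660, 1518 and 1689 RPKM in A10, while Rpl5 did, with 1031, 1118 and 1125 RPKM in Con and 1162, 1107 and 1244 RPKM in A10. The smallest values were those of Rps6 (-0.13 ± 0.17) and Rps12 (0.05 ± 0.13).

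Leaving out any of the 6 libraries gave 43 to 62 members without overlap and higher in A10, against 14.1% to 30.1% of all tested genes. Such a count cannot fall when a library is left out, so these values are no check of the 43. When each library was rescaled to the same non-globin RPKM, 29 members were without overlap and higher in A10 (6.64% of all tested genes). When it was rescaled to the same total, there were 27 (9.93%). The erythroid marker sum was 1545 to 2446 RPKM in Con and 1003 to 1484 RPKM in A10, the globin share 21.5% to 34.4% and 17.2% to 25.7%, and the T cell marker sum 176 to 302 RPKM and 325 to 363 RPKM. The neutrophil marker sum was 758 to 14423 RPKM in Con and 525 to 1360 RPKM in A10. The part of these markers and of globin in the higher values of A10 was not tested.

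With STZ-A10 against STZ, the members differed little. The median log2 fold change was -0.06, against 0.03 over all tested genes, and 61 of the 76 members were below 0. Of the members 0 passed the adjusted threshold (0.00775% of all tested genes), and 1 had an unadjusted p under 0.05, Rpl34, which was lower. Of all tested genes 2.93% had such a p (1.28% higher, 1.65% lower). Rpl34 was at 19.2, 18.7 and 17.9 RPKM in STZ and at 13.5, 12.9 and 12.4 RPKM in STZ-A10. Its log2 fold change was -0.49 ± 0.17, with an interval of -0.86 to -0.13 and an adjusted p of 0.996. The 2 groups did not overlap, and the row's copy Rpl34-ps1, which holds most of the listed signal, was at 3307, 2523 and 2477 RPKM in STZ and 3111, 2519 and 2322 RPKM in STZ-A10, with overlap.

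Rps27l, a paralog of Rps27 that p53 induces, was the only other member without overlap in this pair, lower in STZ-A10 (4.71% of all tested genes), and 0 members were higher without overlap (3.29%). Without STZ-A10 replicate 1 there were 10 lower members (9.38%), without STZ replicate 3 there were 5 (8.09%), and on the non-globin scale 5 (3.12%). The Rps27l values were 129, 127 and 143 RPKM in STZ and 121, 118 and 122 RPKM in STZ-A10. Rps16 (0.08) and Rps27 (0.07) had the highest fold changes and Rps6 (-0.21) the lowest after Rpl34. Without STZ replicate 1 the median of the members was 0.11, and without STZ replicate 3 it was -0.18, so that its sign depended on a single STZ library.

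The interaction of STZ and AOS asks whether AOS went with a different change in STZ animals than in controls. All 76 members had a value below 0, with a median of -0.25, against -0.02 over all tested genes. The adjusted threshold was passed by 0 members and by 0.0% of all tested genes, and 1 member, Rpl34, had an unadjusted p under 0.05, against 2.86% of all tested genes (1.21% above 0, 1.65% below). Rpl36 (-0.57 ± 0.37) and Rpl34 (-0.57 ± 0.24) had the lowest values, and Rpl5 (-0.06) and Rps27 (-0.07) the highest. Each of these values contains the Con and STZ libraries of the comparisons above. Without STZ replicate 1 the median was -0.08.

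**Figure D5:**
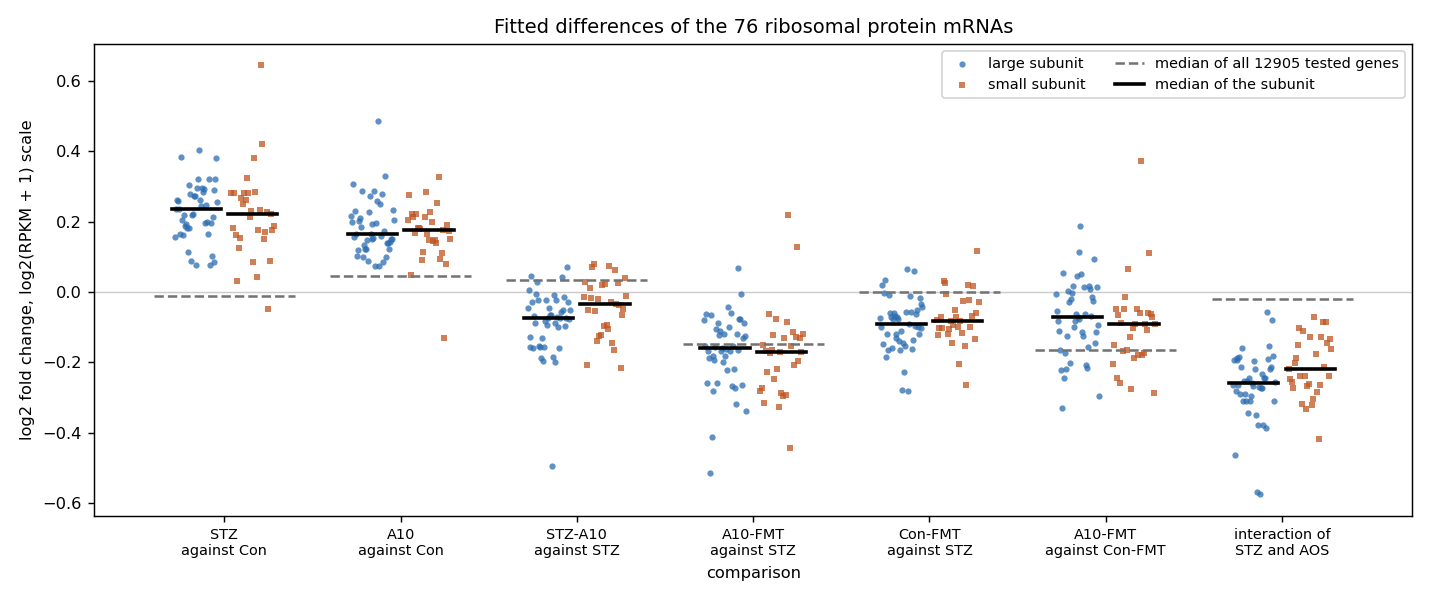
Fitted log2 fold change (log2(RPKM + 1) scale) of each member in the 6 group pairs and the interaction, for the large (circles) and the small subunit (squares). Black bars mark the median of the subunit, at 0.24 and 0.22 in STZ against Con, and dashed lines the median of all 12905 tested genes.

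With A10-FMT against STZ, 73 of the 76 members had a value below 0, and the median was -0.16. The median of all tested genes was close to it, at -0.15. The adjusted threshold was passed by 0 members (0.00775% of all tested genes). At an unadjusted p under 0.05 there were 4 members, all lower (5.26% of the members, against 15.2% of all tested genes), while 1.95% of all tested genes were higher at such a p. The groups did not overlap in 2 members, Rpl14 and Rpl39, both lower in A10-FMT (12.1% of all tested genes), and 0 members were higher without overlap (2.33%).

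Rpl14 stood out among them. It was at 1281, 1033 and 853 RPKM in STZ and at 769, 731 and 688 RPKM in A10-FMT, and its log2 fold change was -0.51 ± 0.15, with an interval of -0.83 to -0.20 and an adjusted p of 0.196. Rps28 (-0.44 ± 0.19) overlapped, with 1599, 1902 and 1380 RPKM in A10-FMT. The highest fold changes were those of Rps27l (0.22) and Rps6 (0.13). Without STZ replicate 1 the median of the members was 0.00 and without STZ replicate 3 it was -0.30. In the latter case 37 members did not overlap and were lower, against 26.3% of all tested genes. On the scale centred on the median of each library the members' median was 0.01.

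With Con-FMT against STZ, 67 of the 76 members had a value below 0, with a median of -0.08, against 0.00 over all tested genes. The adjusted threshold was passed by 0 members (0.00775% of all tested genes), and 1 member, Rpl31, had an unadjusted p under 0.05, which was lower. Of all tested genes 5.24% had such a p (2.66% higher, 2.58% lower). Rpl31, at the exit of the peptide tunnel, was at 1144, 887 and 762 RPKM in STZ and at 772, 720 and 780 RPKM in Con-FMT. The log2 fold change was -0.28 ± 0.12, with an adjusted p of 0.935. The groups overlapped. Rpl36a had the same size (-0.28 ± 0.15), and Rps9 (0.12) and Rpl36 (0.07) had the highest values. The members without overlap were Rpl34 and Rps27l, both lower in Con-FMT (6.22% of all tested genes; 0 members were higher, 6.94%), as in STZ-A10, which was compared with the same STZ libraries. Without STZ replicate 1 the median was 0.08, with 18 members without overlap and higher in Con-FMT (28.1% of all tested genes), and without STZ replicate 3 it was -0.20, with 21 without overlap and lower (17.2%).

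The direct comparison of the transplants, A10-FMT against Con-FMT, asks whether the recipients of the different donor pools differed. The paper's methods state that gut content was pooled within each donor group. The spread between donors is therefore not measured, and a difference between the pools cannot be told apart from an effect of the donors' treatment. The median log2 fold change of the members was -0.09, less far below 0 than the -0.17 of all tested genes. On the scale centred on the library median it was 0.09, and so its sign depended on the scaling. The adjusted threshold was passed by 0 members and by 0.0% of all tested genes, and an unadjusted p under 0.05 was reached by Rps27l, which was higher (3.49% of all tested genes), and Rpl14, which was lower (20.1%). The groups did not overlap in 13 members that were lower in A10-FMT (17.1%), against 23.9% of all tested genes, and in 1, Rpl31, that was higher (5.35%). The 13 became 25 without A10-FMT replicate 1 (26.3%), 21 without A10-FMT replicate 2 (48.3%) and 28 without Con-FMT replicate 2 (28.4%), and they were 23 with the same total RPKM in each library (29.8%). The marker sums of these groups did not overlap either, with 537 to 1844 RPKM in A10-FMT and 1985 to 2140 RPKM in Con-FMT for B cells, 66.2 to 253 RPKM and 271 to 302 RPKM for T cells, and 1960 to 4399 RPKM and 1555 to 1850 RPKM for erythroid cells. Their part in the values was not tested.

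Rpl14 was at 897, 885 and 971 RPKM in Con-FMT, above the 3 A10-FMT libraries given before, with a log2 fold change of -0.33 ± 0.15 and an adjusted p of 0.208. Rplp2, the partner of Rplp1 in the stalk, was at 2190, 2192 and 2203 RPKM in Con-FMT and at 2044, 2020 and 1386 RPKM in A10-FMT (-0.30 ± 0.17). Rps27l was at 127, 110 and 122 RPKM in Con-FMT and at 152, 119 and 206 RPKM in A10-FMT (0.37 ± 0.17, adjusted p = 0.208), and Rpl34 at 13.4, 16.6 and 17.5 RPKM and 18.3, 12.7 and 25.2 RPKM (0.19 ± 0.17). In both, replicate 3 of A10-FMT was the highest library. Without that library Rps27l was at 0.17 and Rpl34 at -0.04 on the log2 scale. Without A10-FMT replicate 2, Rps27l (0.56) and Rpl34 (0.43) passed the adjusted threshold, the only members to do so in any leave-one-out fit of a group pair. The share of all tested genes that passed in that fit is not given. Without that library 13.6% of all tested genes were higher and 48.3% lower in A10-FMT without overlap.

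Across the 6 groups together, 0 of 76 members differed at an adjusted p of 0.05, where 0.449% of all tested genes did, and 1 member, Rpl14, had an unadjusted p under 0.05, where 22.6% of all tested genes did. The mean of the highest group was 1.23 times that of the lowest group in the median member and at most 1.58 times. The highest mean was found in STZ for 44 members and in A10 for 16. STZ replicate 1 was the highest single library for 70 members, so these counts lean on that library. The members move together, and the share over all tested genes is not given.

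Several members with roles of their own stayed close to the common course. Rps27a, which is made as a fusion with ubiquitin, ranged from 1164 RPKM in Con replicate 3 to 1796 RPKM in STZ replicate 1, and its A10 libraries (1392, 1408 and 1458 RPKM) were above its Con libraries (1339, 1348 and 1164 RPKM). Rpsa, also known as a laminin receptor, was at 1704 to 1841 RPKM in Con and 1716 to 2592 RPKM in STZ. Rps3, a DNA repair enzyme besides its place at the mRNA entry, was at 554 to 581 RPKM in Con and 547 to 771 RPKM in STZ. Rpl10, which completes the large subunit late in its assembly, was at 2051 to 2213 RPKM in Con and at 2332 to 2579 RPKM in A10, without overlap.

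The fold changes were also set out by the presence of a TOP tract at the annotated start. In STZ against Con the median log2 fold change was 0.25 in the 13 with the tract, 0.22 in the 44 with a promoter entry but no tract and 0.22 in the 19 without an entry. In A10 against Con the values were 0.20, 0.16 and 0.19. In A10-FMT against STZ they were -0.20, -0.16 and -0.16, and in A10-FMT against Con-FMT -0.11, -0.09 and -0.07. In STZ-A10 against STZ they were -0.067, -0.060 and -0.054, and in the interaction -0.26, -0.24 and -0.25. The order was the opposite in Con-FMT against STZ, with -0.079, -0.081 and -0.092. The mean level was 36.0 to 5987 RPKM in the first set and 15.8 to 3734 RPKM in the second. These medians are descriptions, and the difference between the sets was not tested.

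Genes that act beside the ribosomal proteins were taken from lists. Of 44 ribosome assembly and ribosomal RNA synthesis genes, 0 passed the adjusted threshold in any comparison, where 0.0% to 0.449% of all tested genes did. In STZ against Con 43 of the 44 had a fold change above 0, with a median of 0.23, and 15 had an unadjusted p under 0.05, all higher, against 11.1% of all tested genes (4.63% higher). In A10 against Con 42 of 44 were above 0, with a median of 0.15 and 1 unadjusted p under 0.05 (5.25% of all tested genes). In A10-FMT against Con-FMT the median was 0.10, where all tested genes had -0.17 and the ribosomal protein genes -0.09. The assembly genes summed to 2434, 2349 and 3110 RPKM in A10-FMT and to 2251, 2271 and 2530 RPKM in Con-FMT, so that A10-FMT replicate 3 alone was above all Con-FMT libraries.

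Of 33 translation factors 0 passed, with a median of 0.12 for STZ against Con and of 0.10 for A10 against Con. The 78 mitochondrial ribosomal protein genes had medians of 0.06 and 0.11 in the same comparisons, and 0 passed. In A10-FMT against STZ their median was 0.10, while that of the cytosolic genes was -0.16.

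Among 19 genes of mTOR signalling and Myc, 0 passed in any comparison. In STZ against Con 13 of the 19 had a fold change above 0, with a median of 0.06, against -0.01 over all tested genes. Myc itself, a transcription factor that drives ribosome production and that is named here after its values were seen, was at 26.1, 28.9 and 37.6 RPKM in Con and at 66.2, 52.8 and 48.2 RPKM in STZ. The groups did not overlap (5.77% of all tested genes were higher in STZ without overlap), and the log2 fold change was 0.84 ± 0.17 with an adjusted p of 0.0635. Over all alternatives the adjusted p ran from 1.3e-06 with array weights to 0.321 with only the compared groups in the model. Without STZ replicate 1 it was 0.71, with an adjusted p of 0.218. Without Con replicate 3, STZ replicate 3 or A10-FMT replicate 3, it passed the adjusted threshold (0.0249, 0.0307 and 0.0325). Myc was at 37.3 to 42.1 RPKM in A10-FMT and at 32.2 to 43.8 RPKM in Con-FMT, below the 3 STZ libraries in both groups. Of all tested genes 12.1% and 6.22% were lower without overlap in these pairs. The log2 fold change of Myc against STZ was -0.45 ± 0.17 in A10-FMT (adjusted p = 0.254) and -0.52 ± 0.17 in Con-FMT (adjusted p = 0.842).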

How the data were processed

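Spleen poly(A) RNA of 18 mice was sequenced, and the authors deposited RPKM per gene. Read counts are not used here and the depth is unknown, so no counting intervals are given. The study's methods name SOAPaligner against reference genes, whereas the submitters' processing notes list Bowtie 0.12.2 and mm10. The SOAPaligner setting named there for repeat hits reports all of them. How such reads were counted per gene is not given in the sources used here. Groups came from the labels. Of 19326 lines, 6 with 3 repeated names were dropped. Genes with at least 1 RPKM in at least 3 libraries (12905) entered a single limma-trend model of all 18 libraries, with a pseudocount of 1 before the log2 (limma 3.58.1, R 4.3.3). P-values are two-sided and Benjamini-Hochberg adjusted over all genes, with a threshold of 0.05. Fold changes on this scale are slightly understated for low genes. The fit was tested on simulated data. Copies were found with blastn 2.17.0 in GENCODE M21. Members and gene lists were chosen with earlier results of these data known. Genes named are the 3 highest and 3 lowest means of each subunit, the 2 largest and 2 smallest fold changes of each comparison, any past the threshold, those with a special role and those near the RPKM limit. Members singled out for a deviation in a library, an unadjusted p or a lack of overlap were chosen after their values were seen. The alternatives were 2 normalizations, 2 rescalings, filters, pseudocount 0.1, no trend, compared groups only, array weights, the replicate block and leaving out each library. Overlap counts without single libraries or on other scales were added after seeing the data. Those without single libraries cannot be lower than the counts with all libraries. A list of further ribosomal rows is not reported here.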

Additional observations from a re-analysis of the deposited data

How the results depend on the processing

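The count of members past the adjusted threshold was 0 in each of the 8 tests and stayed 0 under every alternative except the following. With array weights it was 28 in STZ against Con, 30 in A10 against Con, 5 in STZ-A10 against STZ, 14 in A10-FMT against STZ, 5 in Con-FMT against STZ, 15 in A10-FMT against Con-FMT, 15 in the interaction and 64 for any difference. The estimation of these weights did not converge, and they ran from 0.046 for A10-FMT replicate 3 to 424 for A10-FMT replicate 1. Leaving out single libraries gave 0 to 2 members in A10-FMT against Con-FMT, 0 to 1 for any difference and 0 to 0 in all others. For these fits and those with array weights, the share of all tested genes called is not given. Their counts can therefore not be read as a result about the members. With the replicate number as a block, the count was 0 in all 8 tests. Members with an unadjusted p under 0.05 in STZ against Con numbered 11, but 1 on the TPM scale, 2 with only the compared groups in the model, 19 without globins and 28 with median centring. For these alternatives the share of all tested genes with such a p is not given. Deviations from the group means correlated at -0.385 to 0.571 (median 0.044) over 45 pairs with the same number. The median was -0.0094 over 90 pairs with another number, and 9 of 18 libraries matched their own number best. Whether the numbers stand for a pairing or a batch was not tested.

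The median log2 fold change of the members moved by more than the spread between libraries (0.16) with median centring in A10-FMT against STZ (0.0058) and A10-FMT against Con-FMT (0.089), and with quantile normalization in the interaction (-0.082). Over the fits that leave out 1 library it ran from 0.062 to 0.35 in STZ against Con, 0.14 to 0.21 in A10 against Con, -0.18 to 0.11 in STZ-A10 against STZ, -0.30 to 0.0039 in A10-FMT against STZ, -0.20 to 0.08 in Con-FMT against STZ, -0.12 to -0.03 in A10-FMT against Con-FMT and -0.37 to -0.080 in the interaction. Where these change sign or leave the range, STZ replicate 1 or 3 was left out. The cause was not tested. On the scale of equal totals (TPM), the large subunit summed to 84607 in A10 and 66320 in A10-FMT, and the small subunit to 66280 in A10. Other summed levels moved by less than 1 SD on both rescalings.

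Some named genes near 0 changed sign. In STZ against Con, Rps14 was -0.068 with quantile normalization, -0.011 without globins and -0.025 with array weights, and -0.13 to 0.11 over the fits without 1 library, where Rps6 was -0.13 to 0.016. In A10 against Con, Rps12 was -0.041, -0.0004, -0.013 and -0.047 with quantile normalization, median centring, without globins and array weights, and -0.033 to 0.10 without 1 library, where Rps6 was -0.28 to 0.035. In STZ-A10 against STZ, Rps16 was -0.020 with array weights and -0.076 to 0.24 without 1 library, where Rps27 was -0.13 to 0.33. In A10-FMT against STZ, Rps6 was -0.021 on the TPM scale. In Con-FMT against STZ without 1 library, Rpl36 was -0.26 to 0.43 and Rps9 -0.047 to 0.32. In A10-FMT against Con-FMT, Rpl34 was -0.043 to 0.43. In the interaction, Rps27 was 0.0079 without globins, 0.20 with array weights and -0.28 to 0.19 without 1 library, and Rpl5 was 0.058 with quantile normalization, 0.023 without globins and -0.19 to 0.085 without 1 library. With no counts, depth cannot be given as a limit. Precision is limited by 3 libraries per group.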
